A study of Rattus norvegicus with 8 samples.

Results

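The cytosolic ribosome is built from ribosomal RNA and a large set of proteins, and the messenger RNAs of 72 of these protein genes were followed here in rat diaphragm, the main muscle of inspiration. Genes were taken by symbol from a deposited table of 17055 rows: Rpl or Rps followed by digits, with an optional final a, x or l, plus Rpsa and Rplp0, Rplp1 and Rplp2. Kinases and pseudogene-like symbols were left out, and a summed count of at least 80 over the 8 libraries was required. Of 80 symbols with this form, 72 met the minimum, 29 of the small subunit and 43 of the large. The tissue came from Sprague-Dawley rats sampled 16 weeks after chest surgery. In 4 rats a myocardial infarction (MI) had been produced by tying off the left anterior descending branch of the coronary arteries, and 4 Sham rats had the operation without the tie. Isoflurane anaesthesia, ventilation and the opened chest were common to both groups. The sources used here give no infarct size, heart function or animal age.

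Ribosomal proteins are made in step with one another, since each ribosome takes 1 copy of nearly every protein. In vertebrates much of this coordination is exerted on translation: the messenger RNAs begin with a C and a run of further pyrimidines, the 5′ terminal oligopyrimidine (TOP) start, through which the kinase complex mTORC1 and the RNA-binding protein LARP1 regulate their use. The level of the messenger RNA is therefore 1 layer of a system in which muscle adjusts its capacity to make protein during growth, disuse and disease. Striated muscle also has its own copy of a large subunit protein, Rpl3l, beside the general Rpl3.

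The starts of the genes are shown because the selection by symbol did not use the TOP start described above, which not every annotated start had. RefSeq promoter entries of the GRCr8 assembly were found for 58 of the 72 genes, with 59 entries, as Rps27a has 2. Read on the coding strand only, 23 entries had C as the annotated first transcribed base followed by 4 bases that were each C or T. That is 39.0% of the entries, against 2.63% of all 33469 entries in the table. Each sequence below runs from 10 bases before the annotated start to 20 bases from it. Capitals mark the pyrimidine run where it opens with C at the start, and a sequence all in lower case has no such run. The locations are chr2:173827023-173827052 (minus) for Rps3a, chr2:177964587-177964616 (minus) for Rps27, chr12:46718371-46718400 (minus) for Rplp0 and chr11:81235002-81235031 (minus) for Rpl35a. They are chr1:180009641-180009670 (minus) for Rps13, chr7:113507971-113508000 (minus) for Rpl3, chr10:14258436-14258465 (plus) for Rpl3l and chr10:14251838-14251867 (plus) for Rps2.
Rps3a: gtacttccgcCCTTTTggctctcagagcgg
Rps27: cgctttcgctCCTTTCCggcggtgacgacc
Rplp0: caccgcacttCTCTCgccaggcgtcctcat
Rpl35a: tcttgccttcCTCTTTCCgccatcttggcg
Rps13: ttcctacctcgttctctctttgcttccaga
Rpl3: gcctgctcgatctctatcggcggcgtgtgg
Rpl3l: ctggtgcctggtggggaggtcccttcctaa
Rps2: tctttttcttcgggaaaacacgtgagtctg

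Rps13 shows a start annotated close to, but not on, a pyrimidine run. Counting any run of 8 bases that are C or T and that begins within 20 bases of the start on either side, 45 of the 59 entries qualified (76.3%), against 18.4% of all entries. Neither Rpl3 nor its muscle copy Rpl3l had a run opening with C at the annotated start. Rpl3 does open with pyrimidines there, but the first is T, so it was not counted. A sequence without the run says only that no run opening with C lies at the annotated base. The median log2 fold change, MI minus Sham, was 0.12 for the 23 genes with the run and 0.13 for the 35 without it.

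The 72 genes, as listed, took a small share of each library. They held from 0.483% (95% Wilson interval 0.479 to 0.486%) of the counts in Sham replicate 6 to 0.611% (0.607 to 0.615%) in MI replicate 1. These intervals cover counting error only. The mean share was 0.557 ± 0.042% in MI and 0.523 ± 0.029% in Sham (SD, n = 4 each). Library totals ran from 7941402 to 24967251 counts. Levels below are CPM, the usual depth-scaled count, here after scaling between libraries and not divided by transcript length, so genes are not ranked against each other. All 72 genes had enough counts to be tested. Symbols of the same form under the minimum were Rpl37a, with 54 counts in all, Rpl39l with 2, Rps19 with 1, and Rps6, Rps9, Rpl7a, Rpl8 and Rplp2, which are listed at 0 in every library. The lowest included gene was Rpl39, with 153. Every cell uses the proteins of most of these genes, and ribosomal protein genes have many near-identical processed copies in the genome. The handling of reads that match several places is not given in the sources used here, so the level of each gene is uncertain. The same holds for the family's share of counts, which also leaves out the symbols under the minimum. The Wilson intervals do not cover this, and a listing at 0 is not read as absence.

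In MI the family lay slightly above Sham. Of the 72 genes, 67 had a log2 fold change above 0, against 48.7% of all tested genes, and the median was 0.13, against -0.0070 over all 10522 tested genes. The quartiles of the 72 values were 0.08 and 0.17, and the whole range was -0.23 to 0.28. The count above 0 was 65 when libraries were scaled by their totals alone. No gene of the family passed the edgeR quasi-likelihood test at an adjusted p under 0.05, where the smallest adjusted p in the family was 0.601. None passed in DESeq2 or limma-voom. Over all tested genes edgeR gave 0 (0%) and DESeq2 14 of the 9091 genes with an adjusted p (0.154%). At an unadjusted edgeR p under 0.05, 3 of the 72 were higher and 0 lower, against 3.67% of all tested genes higher and 4.47% lower. The family's share of 4.17% is near that background. The 4 MI values lay above all 4 Sham values for 1 gene, Rps3a, or 1.39% of the family against 2.09% of all tested genes. They lay below for none, against 2.46%. In whole diaphragm, fewer cells of a type and less RNA per cell cannot be told apart.

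**Figure D1:**
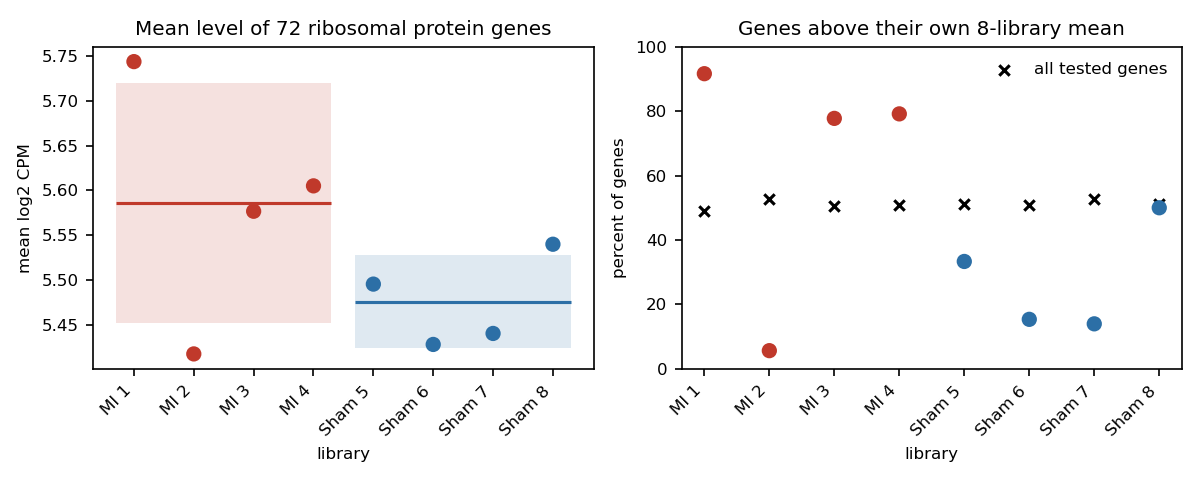
Left, mean log2 CPM of the 72 ribosomal protein genes in each library (points), with the group mean (line) and SD (band) for MI (red) and Sham (blue). Right, the percentage of the 72 genes above their own mean over the 8 libraries, with all tested genes as crosses. MI replicate 1 is highest at 5.74 and MI replicate 2 lowest at 5.42.

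The difference was carried by the family as a block, and the block varied more among MI animals than between the groups. The mean level of the 72 genes was 5.74, 5.42, 5.58 and 5.61 log2 CPM in MI replicates 1 to 4 and 5.50, 5.43, 5.44 and 5.54 in Sham replicates 5 to 8. On this scale MI replicates 1, 3 and 4 lay above all Sham libraries, and MI replicate 2 lay below all of them. That order rests on the scaling between libraries. As a share of counts, MI replicate 2 (0.514%) lay above Sham replicate 6 (0.483%), and MI replicate 3 (0.537%) below Sham replicate 8 (0.554%). In log2 CPM the group means were 5.59 ± 0.13 and 5.48 ± 0.05 (SD, n = 4 each), a difference of 0.11, close to the pooled SD of 0.10. The MI value was the higher in 12 of the 16 pairings of an MI with a Sham animal.

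Single genes followed that order. In MI replicate 1, 66 of the 72 genes lay above their own mean over the 8 libraries, in MI replicate 2 only 4 did, and in MI replicates 3 and 4 the numbers were 56 and 57. In Sham replicates 5 to 8 they were 24, 11, 10 and 36. Among all tested genes, between 49.1% and 52.8% lay above their own mean in each library. MI replicate 1 was above MI replicate 2 for 68 genes. It was the highest library for 54 genes, and MI replicate 2 was the lowest for 25. The median within-group SD of a gene was 0.14 on the log2 scale (0.20 over all tested genes), and it was 0.084 once each library was centred on the mean of the other 71 genes. Centring lowered the SD of 63 of the 72 genes. As a description over 8 libraries that share depth and scaling, the median Pearson correlation of a gene with the mean of the others was 0.84.

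**Figure D2:**
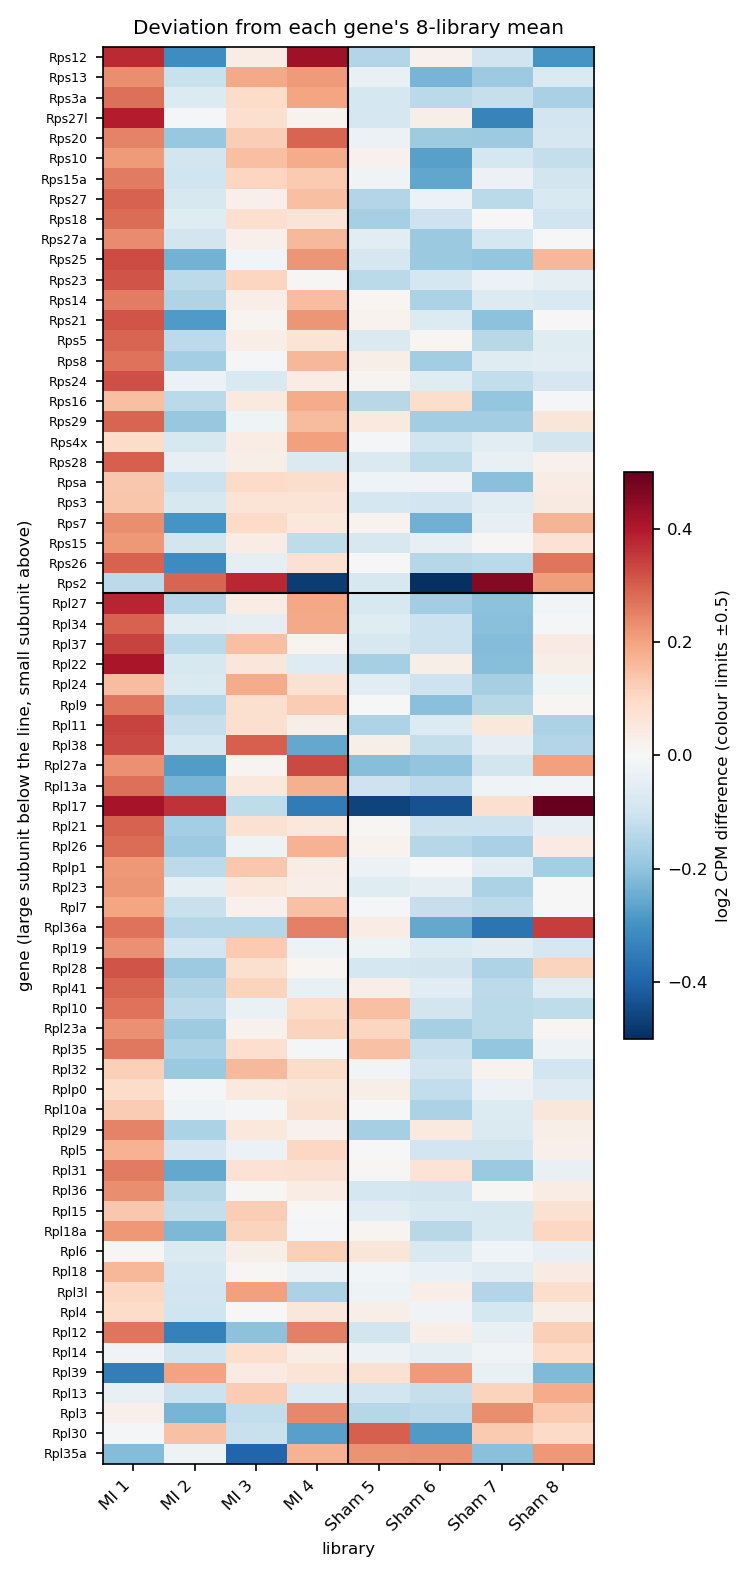
Deviation of 70 genes (rows) from its own mean log2 CPM over the 8 libraries (columns), small subunit above the line and large subunit below, each ordered by log2 fold change. The column of MI replicate 1 is red in most rows and that of MI replicate 2 blue in most, and Rps2, Rpl17, Rpl39, Rpl30 and Rpl35a break the column pattern.

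Because MI held both the highest and the lowest library after scaling, the group difference moved with each of them. Without MI replicate 1 the median log2 fold change was 0.06, 58 genes lay above 0, and 1 gene was higher at an unadjusted p under 0.05 (2.48% of all tested genes were). Without MI replicate 2 the median was 0.18, 67 genes lay above 0, and 23 genes were higher at that level, 15 of the small and 8 of the large subunit. That is 31.9% of the family against 4.36% of all tested genes. No gene of the family passed after adjustment in either case. Among all tested genes 1, no member of the family, passed without MI replicate 1 and 0 without MI replicate 2. Leaving out MI replicate 3, MI replicate 4 or Sham replicate 7 gave 1 gene at that level each time, 1.39% of the family, against 4.08%, 2.39% and 1.97% of all tested genes. With MI replicates 1 and 2 both left out, a choice made after seeing the data, the median was 0.12, with 67 genes above 0 and 5 at an unadjusted p under 0.05, which is 6.94% of the family against 2.76% of all tested genes.

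**Figure D3:**
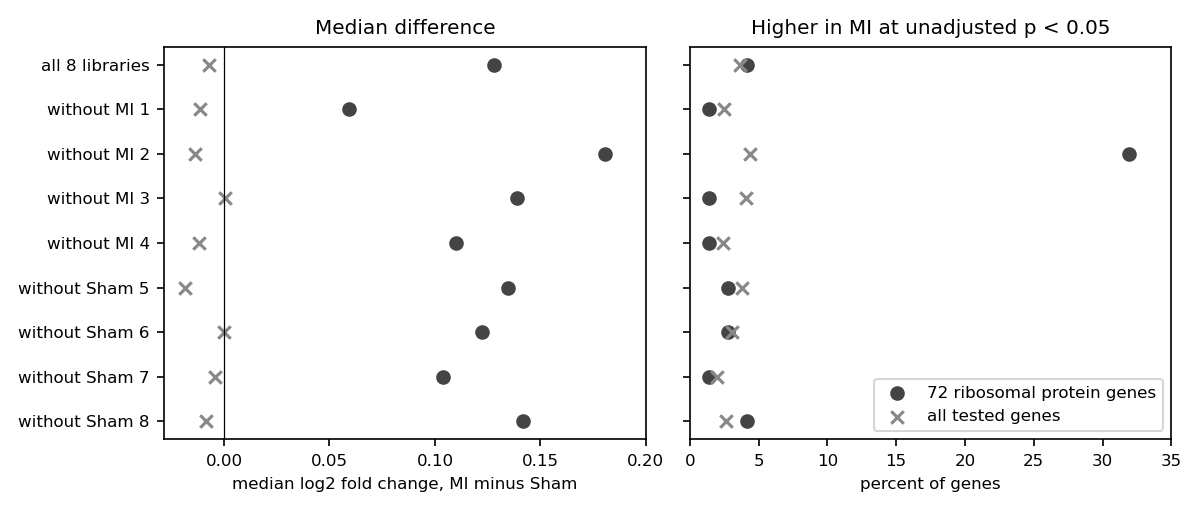
Left, median log2 fold change (MI minus Sham) of the 72 ribosomal protein genes (dots) and of all tested genes (crosses), with all 8 libraries and with each left out. Right, the percentage of genes higher in MI at an unadjusted edgeR p under 0.05. The family ranges from 0.06 without MI replicate 1 to 0.18 without MI replicate 2, and from 1.39% to 31.9%.

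The animal numbers in the labels fall in 2 ranges. The lower holds MI replicates 1 and 2 and Sham replicate 5, so both extreme MI libraries and 1 Sham library, which is too few for a value of its own. In the higher range, MI replicates 3 and 4 averaged 5.58 log2 CPM and Sham replicates 6 to 8 averaged 5.47, a difference of 0.12. The values did not overlap after scaling, but as a share of counts MI replicate 3 (0.537%) lay below Sham replicate 8 (0.554%). With the range as a term in the edgeR fit the median log2 fold change was 0.12. What the number range stands for is not given.

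All 29 genes of the small subunit, the part of the ribosome that reads the messenger RNA, had a log2 fold change above 0, with a median of 0.15. Scaling by library totals alone left 28 above 0, since Rps2 turned, and leaving out single libraries left 26 to 29. All 3 genes at an unadjusted p under 0.05 belonged to this subunit, 10.3% of its genes against 3.67% of all tested genes. This split hangs on the limit, since the unadjusted edgeR p was 0.049 for Rps20 and 0.0507 for Rpl27 of the large subunit. Rps3a, which encodes the protein eS1, was at 187, 147, 164 and 177 CPM in MI and 145, 140, 142 and 138 in Sham, and was the 1 gene whose groups did not overlap. Its means were 169 ± 17.1 and 141 ± 3.00 CPM (SD, n = 4 each), which gave a log2 fold change, MI minus Sham, of 0.26 ± 0.08 (SE, as after ± for fold changes below; edgeR adjusted p = 0.601). The lowest MI value, in replicate 2, was close to the highest Sham value.

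Rps13, which encodes the protein uS15, was at 47.4, 37.4, 46.1 and 46.8 CPM in MI and 39.4, 34.4, 35.6 and 38.4 in Sham. Here 3 MI libraries stood apart and MI replicate 2 lay among the Sham values (0.27 ± 0.10; edgeR adjusted p = 0.601). Rps20, which encodes the protein uS10 in the head of the small subunit, was at 46.4, 34.2, 42.5 and 47.7 CPM in MI and 38.2, 34.5, 34.4 and 36.8 in Sham (0.25 ± 0.11; adjusted p = 0.608), with MI replicate 2 the lowest of all 8.

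Rps27 and Rps27l encode 2 versions of the same small subunit protein, a zinc-binding component. Rps27 was at 68.0, 52.4, 56.4 and 61.6 CPM in MI and 50.1, 54.4, 50.5 and 52.5 in Sham, with 0.20 ± 0.09 as its log2 fold change. Rps27l was at 42.4, 32.0, 34.0 and 32.6 CPM in MI and 30.4, 32.9, 25.5 and 30.1 in Sham, a log2 fold change of 0.25 ± 0.12. Both had MI replicate 1 as the highest library and neither passed (edgeR adjusted p = 0.610 and 0.616). Rpsa, also known as the laminin receptor, ranged from 114 to 135 CPM in MI and 106 to 126 in Sham (0.11 ± 0.08). Rps4x, the X-linked member, ranged from 60.8 to 74.1 CPM in MI and 60.1 to 64.1 in Sham (0.13 ± 0.08). Both sets of values overlapped.

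The large subunit, which joins amino acids into the chain, had 38 of 43 genes above 0, with 0.096 as the median log2 fold change. None of its genes had an unadjusted p under 0.05, though 1 did with RLE scaling and 1 without the filter on low counts. Rpl27 came nearest, at 65.0, 45.2, 51.2 and 57.1 CPM in MI and 47.2, 44.3, 43.3 and 49.5 in Sham (0.25 ± 0.11; edgeR adjusted p = 0.608). Again MI replicate 2 lay among the Sham values. Rpl22, which also has roles outside the ribosome in lymphocytes, was at 20.4 CPM in MI replicate 1 and between 14.5 and 15.9 in the other MI libraries, against 13.2 to 15.6 in Sham (0.18 ± 0.14). Rpl13a, known for its part in silencing inflammatory messages, was at 63.2 to 90.1 CPM in MI and 67.9 to 73.7 in Sham (0.15 ± 0.11), with MI holding both the lowest and the highest library.

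The values of several of these genes rested in part on MI replicate 1. Without it the log2 fold change was 0.15 for Rpl27, 0.12 for Rps27, 0.14 for Rps27l, 0.07 for Rpl13a and 0.05 for Rpl22. Rpsa was at 0.05 without Sham replicate 7, and Rps4x at 0.08 without MI replicate 4.

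The stalk of the large subunit, which recruits elongation factors, is formed by Rplp0 with Rplp1 and Rplp2. Rplp0 had the smallest within-group SD of the family, 0.053 on the log2 scale, and is often used as a reference gene. It was at 582, 543, 565 and 569 CPM in MI and 557, 503, 536 and 523 in Sham, higher in MI in 15 of 16 pairings, and 0.09 ± 0.07 was its log2 fold change (edgeR adjusted p = 0.707). Rplp1 was at 91.6, 71.8, 86.5 and 80.8 CPM in MI and 77.1, 78.6, 75.7 and 70.001 in Sham (0.13 ± 0.09; 0.07 without MI replicate 1). Rplp2 is listed at 0. Rpl6 and Rpl14 were the next steadiest genes, with within-group SDs of 0.070 and 0.071 and log2 fold changes of 0.04 ± 0.08 and 0.0028 ± 0.07. Rpl6 ranged from 33.0 to 37.7 CPM in MI and 32.9 to 36.2 in Sham, and Rpl14 from 137 to 155 CPM in MI and 142 to 156 in Sham, so the groups overlapped throughout.

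**Figure D4:**
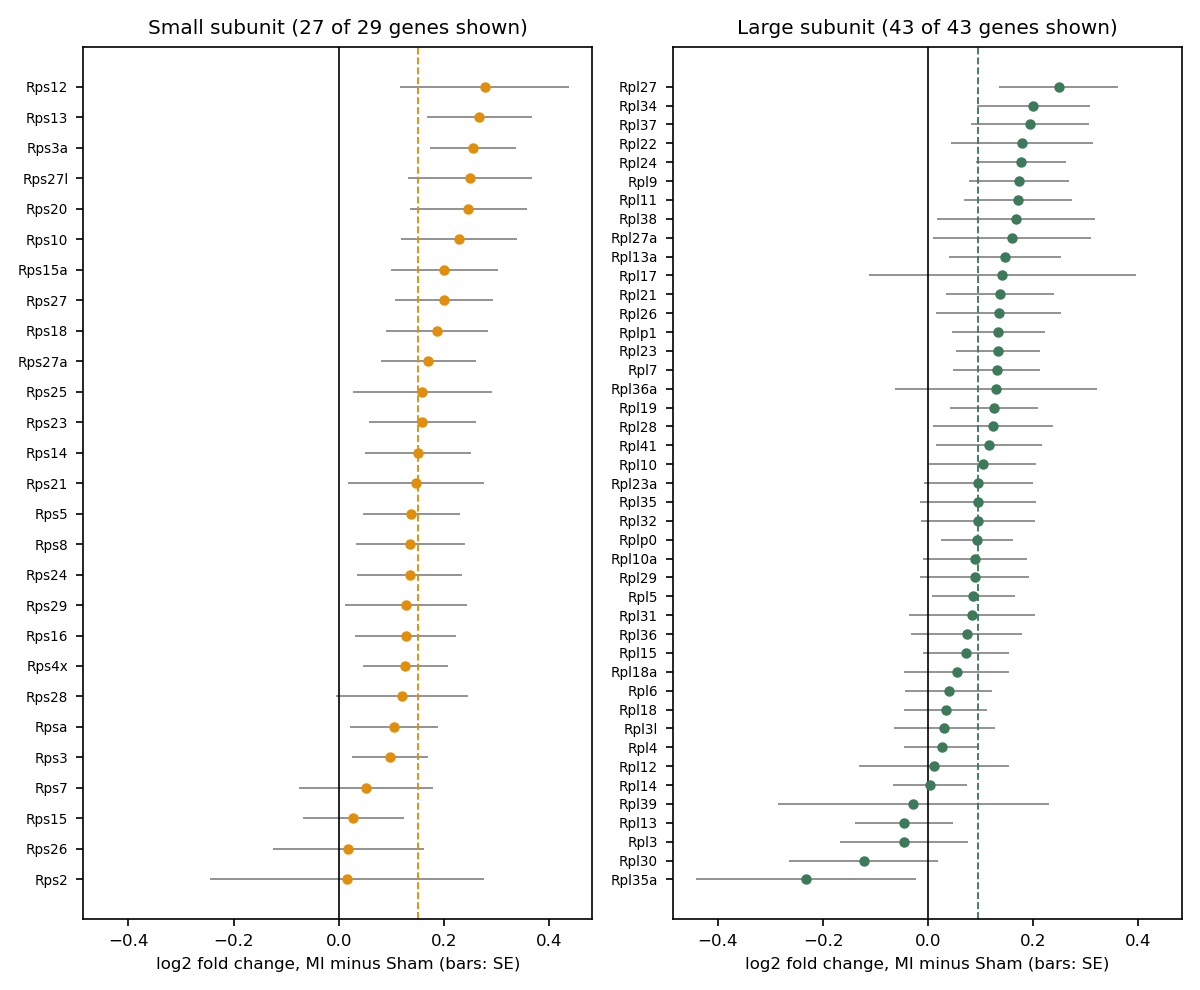
Log2 fold change (MI minus Sham) with its SE for 27 of the 29 small subunit genes (left) and the 43 large subunit genes (right), the dashed line marking each subunit's median, 0.15 and 0.096. The 5 genes below 0 are all in the large subunit, and no gene passed after adjustment.

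Of the 5 genes below 0, all of the large subunit, none differed beyond the spread between animals. Rpl35a was at 2.61, 3.00, 2.29 and 3.46 CPM in MI and 3.59, 3.60, 2.62 and 3.57 in Sham (-0.23 ± 0.21), resting on 27 to 68 counts a library. Its start, shown above, opens with a pyrimidine run, as do those of genes with the opposite sign. Rpl30 was at 17.0, 18.8, 15.7 and 14.1 CPM in MI and 20.9, 14.0, 18.6 and 18.2 in Sham (-0.12 ± 0.14), the highest and the lowest values both being Sham. Rpl39 rested on 9 to 33 counts a library and ranged from 1.002 to 1.53 CPM in MI and 1.11 to 1.54 in Sham (-0.03 ± 0.26). Rpl13 was at 72.4 to 85.2 CPM in MI and 71.99 to 88.8 in Sham (-0.05 ± 0.09). Rpl30 was at -0.05 without Sham replicate 5 and at -0.22 without Sham replicate 6. Rpl35a was at -0.14 without MI replicate 3 and at -0.35 without Sham replicate 7. Rpl13, Rpl39 and Rpl3 changed sign when single libraries were left out.

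These genes were also among those least correlated with the rest of the family across libraries. That is partly built into the choice of genes below 0, since the family's mean lay higher in MI. Rpl39 and Rpl35a rested on few counts as well, so their correlations cannot show a behaviour of their own. Of the 72, 7 had a Pearson correlation below 0.3 with the mean of the others over the 8 libraries: Rpl39 (-0.75), Rpl35a (-0.34), Rpl30 (-0.24), Rps2 (-0.21), Rpl13 (0.11), Rpl17 (0.19) and Rpl3 (0.27). Rps2 and Rpl17 had the largest within-group SDs, 0.44 and 0.42, followed by Rpl36a at 0.28. Rps2 was at 63.4, 85.0, 90.2 and 49.9 CPM in MI and 65.8, 44.3, 95.5 and 80.2 in Sham, so both groups held high and low libraries, and its log2 fold change was 0.02 ± 0.26. Rpl17 was at 43.2, 41.6, 29.6 and 25.4 CPM in MI and 23.4, 23.9, 34.2 and 46.5 in Sham, spread about equally in both groups (0.14 ± 0.25). Rpl36a ranged from 5.93 to 7.95 CPM in MI and 5.05 to 8.37 in Sham (0.13 ± 0.19), and its log2 fold change ran from 0.016 without Sham replicate 7 to 0.27 without Sham replicate 8.

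Rpl3 and its muscle copy Rpl3l were set against each other within each library, which removes the scaling. Rpl3l was at 488, 426, 524 and 407 CPM in MI and 447, 466, 411 and 483 in Sham, a log2 fold change of 0.03 ± 0.10. Rpl3 was at 94.7, 79.2, 85.5 and 110 CPM in MI and 84.4, 85.1, 110 and 102 in Sham, a log2 fold change of -0.05 ± 0.12. The log2 ratio of Rpl3l to Rpl3, not corrected for length, was 2.36, 2.42, 2.61 and 1.88 in MI and 2.40, 2.45, 1.90 and 2.24 in Sham. Its means were 2.32 ± 0.31 and 2.25 ± 0.25 (SD, n = 4 each), a difference of 0.07 with an exact two-sided permutation p of 0.714, where 4 against 4 cannot go below 0.0286. The sign of this difference turned without MI replicate 3 (-0.026) or Sham replicate 7 (-0.044). The lowest ratios belonged to 1 library of each group, MI replicate 4 and Sham replicate 7, where Rpl3 was highest and Rpl3l lowest of the 8.

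The balance of the subunits differed a little between the groups. The mean log2 CPM of the 29 small subunit genes minus that of the 43 large subunit genes was 0.042, -0.029, 0.011 and 0.042 in MI replicates 1 to 4 and -0.044, -0.059, -0.030 and -0.070 in Sham replicates 5 to 8. All 16 pairings had the higher value in MI, though MI replicate 2 at -0.0294 and Sham replicate 7 at -0.0303 were a near tie. The means were 0.017 ± 0.034 in MI and -0.051 ± 0.017 in Sham (SD, n = 4 each), a difference of 0.067, which stayed between 0.059 and 0.083 with each library left out. As a score over genes chosen with results known, it was given no p.

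**Figure D5:**
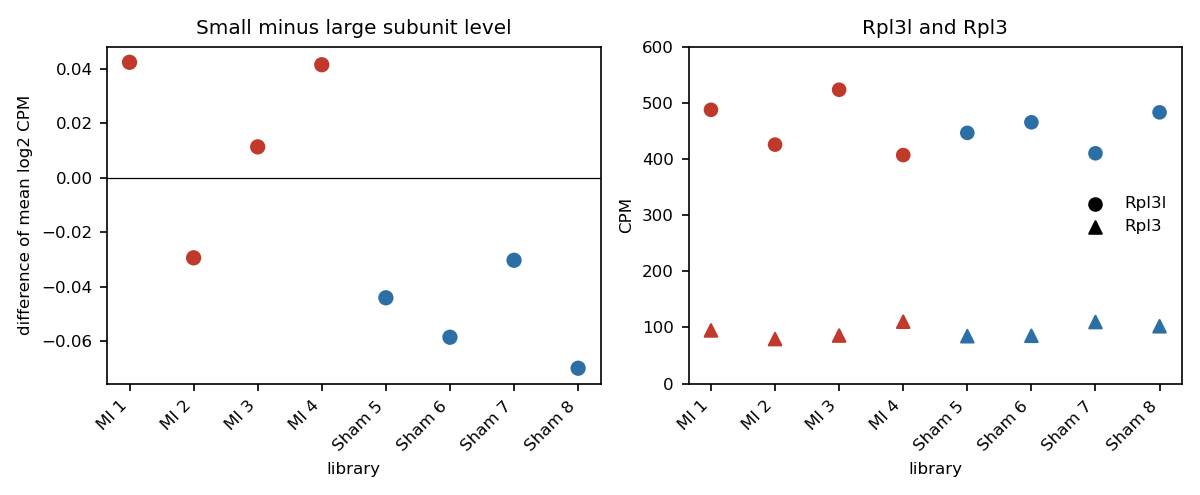
Left, mean log2 CPM of the small subunit genes minus that of the large subunit genes in each library, for MI (red) and Sham (blue), with MI from -0.029 to 0.042 and Sham from -0.070 to -0.030. Right, CPM of Rpl3l (circles) and Rpl3 (triangles) in the same libraries, both overlapping between the groups.

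Other genes of the translation machinery were read from lists of fixed membership, and no gene of any list passed the edgeR test after adjustment. Ribosomal protein genes and ribosome-associated genes outside the symbol rule had 6 of 7 tested genes above 0, and their median was 0.14 on the log2 scale. Fau, which encodes a ribosomal protein fused to a ubiquitin-like protein, was at 0.12 ± 0.09. In this list Rps4y2 (3.57 against 2.06 CPM, 0.80 ± 0.41) and Rpl36al (14.1 against 12.1 CPM, 0.23 ± 0.12) had the smallest p. Rps4y2 was at 5.95 CPM in MI replicate 1 and 2.54 to 3.00 in the other MI libraries, against 0.952 to 3.16 in Sham. A list drawn up as elongation factors and other TOP messages had 15 of 21 above 0 (71.4%, against 48.7% of all tested genes) and 6 below. Its median was 0.07. The starts of these genes were not examined here. Elongation factors lay on both sides of 0, such as Eef1a1 at 0.09 ± 0.12 and Eef2, the lowest of the list, at -0.17 ± 0.09. At an unadjusted p under 0.05, 2 of the 21 were higher (9.52%, against 3.67%) and 0 lower. These were Tpt1, a growth-related protein, at 944, 715, 874 and 918 CPM in MI and 733, 705, 724 and 724 in Sham (0.26 ± 0.09), and the initiation factor subunit Eif3h (0.18 ± 0.08). For Tpt1, 3 MI libraries lay above all Sham values and MI replicate 2 inside them.

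The lists further from the ribosome itself had medians below 0, as did all tested genes (-0.007, with 48.7% above 0). The initiation and ribosome assembly lists lay near that background. Initiation factors had 12 of 27 tested genes above 0 (44.4%) and a median of -0.02. At an unadjusted p under 0.05, 0 of the 27 were higher and 1 lower, Eif4h (-0.27 ± 0.11). Over all tested genes 3.67% were higher and 4.47% lower at that level. Eif5 lay in the other direction at 0.19 ± 0.09. Ribosome assembly and RNA polymerase I genes had 17 of 37 above 0 (45.9%) and a median of -0.02, with 0 at that level in either direction. Ubtf, the factor that opens ribosomal RNA genes to the polymerase, was at -0.23 ± 0.11, and Noc2l at -0.18 ± 0.09. A list around mTORC1 and TOP control had 3 of 20 above 0 (15%) and a median of -0.11, with 0 at that level in either direction. It mixes activators and inhibitors, so its median gives no direction for mTORC1, and Larp1 was not among the genes tested. Ddit4, an inhibitor of mTORC1 induced by stress, was at 2.53 ± 1.43 CPM in MI and 5.09 ± 3.04 in Sham (SD, n = 4 each; -1.02 ± 0.48), a value in which Sham replicate 7 stood at 9.57 CPM. Tsc2, an upstream inhibitor, was at -0.24 ± 0.12. Whether these lists differ from the ribosomal protein genes was not tested.

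Depth and markers of other cell types were set beside the mean ribosomal protein level, which ran from high to low as MI 1, MI 4, MI 3, Sham 8, Sham 5, Sham 7, Sham 6 and MI 2. Apart from MI replicate 1, with 15001575 counts, the 4 libraries at the top of this order after it had the 4 smallest totals, between 7941402 and 13741348 counts. With all libraries thinned to 7941402 counts the group difference was 0.12. Random thinning keeps each gene's expected share of its library, so it cannot show whether the level goes with depth, which was not tested. Fibroblast markers, with 6 of 7 listed genes tested and Col1a2 at 0, summed to 1820 to 3280 CPM in MI and 1690 to 2360 in Sham. The 4 libraries with the highest fibroblast sums (MI 4, Sham 8, MI 3 and MI 1) were the 4 with the highest ribosomal protein level. Red blood cell markers, 6 of 8 listed genes tested, summed to 369 to 805 CPM in MI and 236 to 378 in Sham, with MI replicate 1 the lowest MI library. Mesothelial markers, 3 of 4 listed genes tested, summed to 41.1 to 174 CPM in MI and 113 to 253 in Sham, with MI replicate 2 the lowest library. Their part in the ribosomal protein level was not tested. The 8 skeletal muscle markers in the table, of 10 listed, summed to between 103000 and 131000 CPM in every library.

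The remaining marker lists each shared 1 or 2 of their 4 highest libraries with the ribosomal protein level. Macrophage markers, 7 of 8 listed genes tested, summed to 85.3 to 148 CPM in MI and 93.4 to 224 in Sham. Lymphocyte markers, 4 of 10 tested, summed to 22.6 to 34.9 CPM in MI and 20.7 to 73 in Sham, the highest value of both lists being Sham replicate 7. Endothelial markers, 7 of 7 tested, summed to 319 to 415 CPM in MI and 334 to 413 in Sham. Adipocyte markers, 5 of 5 tested, summed to 198 to 410 CPM in MI and 162 to 237 in Sham.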

How the data were processed

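Total RNA of snap-frozen diaphragm was made into libraries with SMARTer ultra-low-input and KAPA Hyper kits. The labels' protocols mention no strand-specific step. The deposited table holds the authors' raw counts per gene symbol, 1 column per animal. The submitters' processing notes name bcl2fastq, STAR 2.5.0a, TopHat2, TopHat, Cufflinks and build rn5. For the counting program and annotation, the status is: not given in the sources used here. No column belonged to another series.

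The members, gene lists and tests were chosen with earlier results of these data known. Groups came from the labels, which give no batch and number each animal once. Within-group pairs of libraries differed beyond sampling noise (chi-square per degree of freedom 12.1 to 44.3). The model was fitted to all genes in R 4.3.3 with edgeR 4.0.16: genes kept by filterByExpr, TMM scaling, and the robust quasi-likelihood test in its two-sided form. The p-values of 10522 genes were adjusted together by the Benjamini-Hochberg method, and 0.05 was the limit. The common coefficient of biological variation came to 17.3%. Mean levels used log2 CPM with a prior count of 2. The procedure was also run on simulated counts. There the genes varied independently and the fold changes were larger than any in the family. Small shifts shared by many genes were not simulated. A floor of 3 counts was 0.120 to 0.378 CPM.

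Named members were the 6 with the smallest p, all with a log2 fold change below 0, the 3 with the largest and 3 with the smallest within-group SD, and Rpl3, Rpl3l, Rps27, Rps27l, Rpsa, Rplp0, Rplp1, Rps4x, Rpl13a and Rpl22. From each other list the 2 genes with the smallest p were named. Fau, Eef1a1 and Eef2 were added after their values were seen. Some genes are not reported here. Alternatives were other scalings and filters, DESeq2 1.42.0, limma-voom (limma 3.58.1), no robust estimation, the animal number range (under 270 or not), a prior count of 0.5, thinned counts and each library left out. Symbols were matched to RefSeq names of GRCr8, which differs from rn5.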

Additional observations from a re-analysis of the deposited data

Results flagged for a closer look

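Groups of 4 libraries were examined for a single value far from the others, by Dixon's ratio of the gap to the group's range at the 95% level, for the named genes and the summary levels, 58 groups in all. Chance alone flags about 1 group in 20, and 2 were flagged. Rps13 in MI had a gap of 0.884 of the range, with MI replicate 2 at 5.23 log2 CPM and the others between 5.53 and 5.57. Rpl35a in Sham had a gap of 0.969, with Sham replicate 7 at 1.47 log2 CPM and the others between 1.89 and 1.90.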

How the results depend on the processing

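Each result was recomputed under the listed alternatives. DESeq2 called 14 genes over the whole table, none in the family, and leaving out 1 library gave 0 to 1 in edgeR (1 without MI replicates 1 and 2 together). Genes of the family higher at an unadjusted p under 0.05 numbered 2 to 4 (2.78 to 5.56% of the family) under the other scalings, filters and tools, against 2.68 to 3.94% of all tested genes. They numbered 1 to 23 (1.39 to 31.9%) with 1 library left out, against 1.97 to 4.36% of all tested genes, and 5 without MI replicates 1 and 2. The median log2 fold change stayed above 0, from 0.059 to 0.18 with 1 library left out and 0.12 to 0.14 otherwise. Rpl14 turned to -0.0073 with library totals alone, -0.0003 without a filter, -0.0035 with the 1 CPM filter, and ranged from -0.0202 to 0.034 with 1 library left out. Rps2 was at -0.0073 with library totals alone, -0.15 to 0.19 with 1 library left out, and -0.0244 without MI replicates 1 and 2. Rpl3 was at 0.0045 with the animal number range, -0.14 to 0.0225 with 1 library left out and 0.0368 without MI replicates 1 and 2. Rpl13 ranged from -0.092 to 0.0099, Rpl39 from -0.12 to 0.0862, Rpl17 from 0.01 to 0.36 and Rpl3l from -0.0314 to 0.0861 with 1 library left out. Without MI replicates 1 and 2, Rpl13 was at 0.0065, Rpl39 at 0.0298, Rpl14 at 0.0618 and Rpl17 at -0.208. The difference in the log2 ratio of Rpl3l to Rpl3 ranged from -0.0438 to 0.22 with 1 library left out and was -0.0011 without MI replicates 1 and 2. The share of pyrimidine starts was 76.3% under the wider definition, which admits runs near the start as well as on it. For the other changes the cause was not tested. Differences of about 0.1 on the log2 scale are of the size of the SE of most single genes (median 0.10 in the family). No paired analysis was possible because the labels number each animal once and the groups share no number. The planned median over genes with short proteins was not run, since no protein table was used.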

Other observations

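Outside the family, the 5 tested genes whose log2 CPM over the 8 libraries was most like the mean ribosomal protein level were Wdr83os (Pearson r = 0.98), Polr2d, a subunit of RNA polymerase II (0.97), Tmem179b (0.97), Prdx4, a peroxiredoxin of the endoplasmic reticulum (0.97), and Trmt112, a partner of methyltransferases that modify ribosomal and transfer RNA (0.97). They were picked as the highest of all tested genes outside the family, so these correlations are a description and carry no p. Wdr83os was at 64.0, 47.9, 52.7 and 56.6 CPM in MI and 51.5, 46.3, 47.8 and 52.3 in Sham, with a log2 fold change of 0.16 ± 0.10. Prdx4 was at 38.6, 23.8, 31.2 and 35.6 CPM in MI and 27.3, 25.4, 24.3 and 30.4 in Sham (0.27 ± 0.14). In both genes MI replicate 1 was the highest library, and MI replicate 2 lay inside the Sham values for Wdr83os and below them for Prdx4.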
